A study of Homo sapiens with 10 samples.

Results

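The 7 genes described here encode the protein coat of caveolae: the caveolins CAV1 and CAV2, the cavins CAVIN1, CAVIN2 and CAVIN3, the ATPase EHD2 and the membrane-bending protein PACSIN2. They were taken by symbol from a deposited table of estimated RNA sequencing counts with 40664 gene rows, and all 7 had a row. The low-count filter of the fit kept 13990 genes, among them 6 of the 7, and CAVIN3 was left out because it had a count of 0 in every library.

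The table holds 10 libraries of hTERT RPE-1 cells (CRL-4000), which derive from human retinal pigment epithelium and carry telomerase for unlimited growth. The groups were control cells on a 10 kPa substrate (n = 2), cells given siNemp1, a small interfering RNA against NEMP1, on 10 kPa (n = 2), control cells on 120 kPa (n = 3) and siNemp1 cells on 120 kPa (n = 3), the labels calling 10 kPa soft and 120 kPa stiff. NEMP1 is a membrane protein of the nuclear envelope. The labels do not say what the control cells received, how long the cells were treated or grown on the substrate, or whether libraries of a group came from separate cultures, so the p-values below measure the spread between libraries, which may be technical.

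Caveolae are small flask-shaped pits of the plasma membrane, rich in cholesterol and abundant in endothelial cells, adipocytes, muscle and many adherent cell lines. Caveolin-1 inserts into the membrane as oligomers and is needed for caveolae outside striated muscle, caveolin-2 joins it in hetero-oligomers, and cavin-1 trimers polymerise on the cytosolic side into the outer coat. Caveolae flatten when membrane tension rises, which releases cavins and EHD2 from the coat, and they are therefore studied as a membrane reservoir in cells under mechanical load.

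Levels are given in counts per 1000000 (CPM) after scaling of the libraries with TMM, and, to compare genes, in CPM per kilobase of annotated coding-transcript exon. Differences are on the log2 scale with their standard error, from edgeR's quasi-likelihood test on all genes, with the Benjamini-Hochberg adjustment over every gene tested, and a gene was called at an adjusted p under 0.05. The first fit used all libraries and 1 mean per group. At 120 kPa, libraries with the same replicate number deviated together, so values of a second fit, in which the replicate number enters as a block, stand beside results whose call it changes.

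Library totals were between 17949807 and 23797713 counts. NEMP1 lay between 14.0 and 18.3 CPM in the 5 control libraries and between 4.11 and 8.22 CPM in the 5 siNemp1 libraries, without overlap. Of all tested genes 1.97% were lower in this way in 5 against 5 libraries. The first fit called 0 of 13990 genes for siNemp1 minus control at either stiffness, so NEMP1 itself was not called at 10 or 120 kPa. Among the markers of the labelled cell type, KRT8 (median 1120 CPM), KRT18 (604), MITF (123), BEST1 (71.0) and OTX2 (27.5) were detected in every library, whereas CDH1, EPCAM, RPE65 and RLBP1 had a median of 0. Markers of other caveola-rich cell types were at or near 0: none of the 5 endothelial, 4 adipocyte and 5 muscle genes had a median above 1 CPM, and CDH5 and LEP had no count in any library. The summed level of 5 mesenchymal markers was 12900 to 13300 CPM in control and 8790 to 9100 in siNemp1 cells at 10 kPa. At 120 kPa it was 7960 to 12000 in control and 3950 to 8240 in siNemp1 cells. The sum rests mainly on FN1 (1950 to 9360 CPM over the 10 libraries) and VIM (1610 to 3000). THY1 had 255 to 832 CPM, CDH2 111 to 148 and COL1A1 4.13 to 7.96, so the sum does not describe each marker. The share of counts from mitochondrially encoded genes was 1.48% to 1.60% at 10 kPa, 1.73%, 1.40% and 0.913% in control libraries 1, 2 and 3 at 120 kPa, and 1.06%, 0.826% and 0.709% in siNemp1 libraries 1, 2 and 3 there. The ranges of both measures lay lower in siNemp1 than in control cells at 120 kPa, with overlap, and their part in the differences below was not tested. In bulk RNA, fewer cells expressing a gene and less RNA per cell cannot be told apart.

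The coat genes differed widely in level. Over the 10 libraries the median was 205.2 CPM per kilobase for CAV1, 47.0 for EHD2, 39.3 for CAVIN1, 8.88 for CAV2, 5.68 for PACSIN2 and 0.925 for CAVIN2. Among 12389 coding genes ranked by mean CPM per kilobase, CAV1 stood at 305, EHD2 at 1180, CAVIN1 at 1424, CAV2 at 3977, PACSIN2 at 5402 and CAVIN2 at 9664. The ranges of EHD2 (31.0 to 66.1 CPM per kilobase) and CAVIN1 (21.9 to 45.9) overlapped, and those of CAV2 (7.15 to 16.9) and PACSIN2 (4.26 to 7.07) did not.

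CAVIN3, which binds protein kinase C delta and caveolin-1, had a count of 0 in all 10 libraries. A count of 0 allows up to 3 counts, or 0.126 to 0.167 CPM depending on the library, for counting error only. Its annotated gene (ENSG00000170955, chromosome 11, 6318946 to 6320647, minus strand, GRCh38) shares 557 of its 1672 exon bases with AC068733.3, a processed transcript on the opposite strand. The way reads were assigned at such loci was not given in the sources used here.

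**Figure D1:**
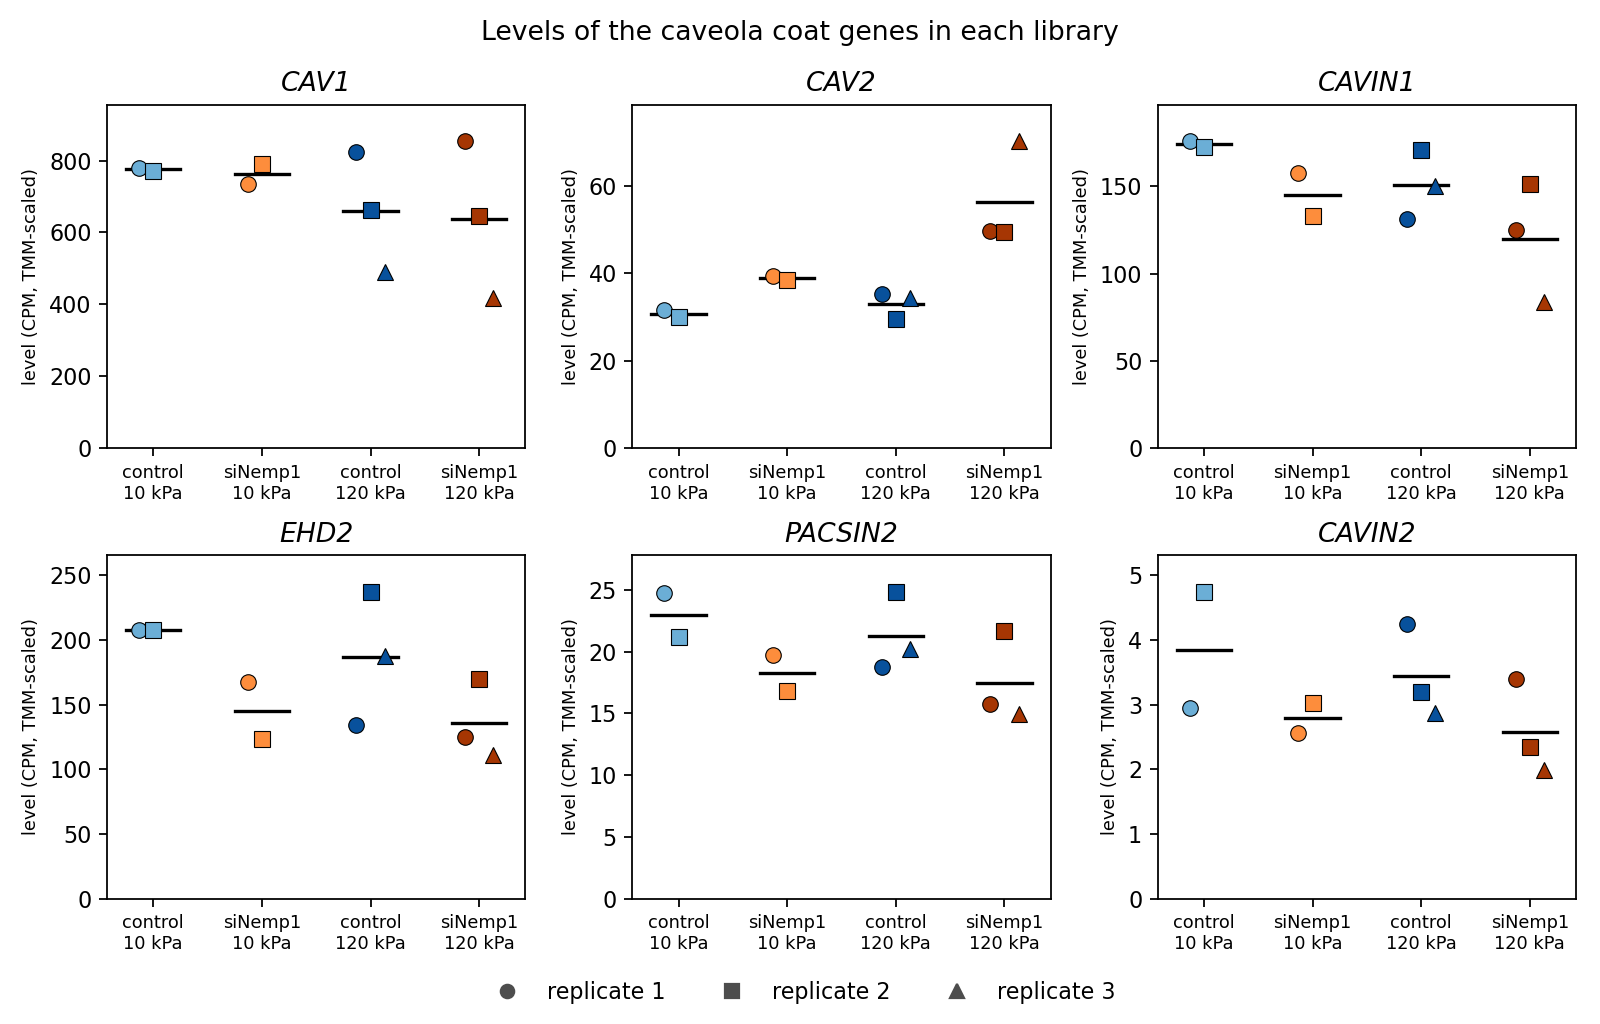
Level of the 6 coat genes with counts in each library, in TMM-scaled CPM (vertical axes from 0, a separate scale per gene); points are libraries, marked by replicate number, and bars are group means. CAV2 is the gene whose 5 siNemp1 libraries all lie above its 5 control libraries, and the CAV1 panel shows the wide spread between replicates at 120 kPa.

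CAV1 (ENSG00000105974, chromosome 7, 116524785 to 116561184, plus strand) did not follow the siRNA. Its level at 10 kPa was 780.5 and 772 CPM in control against 736 and 791 in siNemp1 libraries 1 and 2. At 120 kPa the control libraries 1, 2 and 3 had 824, 661 and 489.6 CPM, and the siNemp1 libraries 853, 645 and 417. The groups overlapped at both stiffnesses, and at 120 kPa the level went with the replicate number, high in both libraries numbered 1 and low in both numbered 3, as the mitochondrial share did among the control and among the siNemp1 libraries. The difference of siNemp1 from control was −0.04 ± 0.24 at 120 kPa (95% interval −0.58 to 0.50, adjusted p = 0.949, edgeR) and −0.02 ± 0.30 at 10 kPa (−0.69 to 0.64), and averaged over both it was −0.03 ± 0.19. With the block the interval at 120 kPa was −0.33 to 0.19 and the adjusted p was 0.767 (edgeR). The pooled SD within groups was 0.372 on the log2 scale, against a median of 0.248 over all genes and 0.186 for CAV2.

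CAV2 (ENSG00000105971, chromosome 7, 116287380 to 116508541, plus strand) was higher in siNemp1 cells. Its annotated end lies 16243 bases before the start of CAV1 on the same strand. Annotated antisense genes share 76 of 6926 exon bases with CAV2, 233 of 3229 with CAVIN2 and 0 with CAV1. The strandedness of the counting was not given in the sources used here, so reads from the shared bases cannot be assigned to a strand. Its level at 10 kPa was 31.5 and 30.0 CPM in control against 39.3 and 38.4 in siNemp1 libraries 1 and 2. At 120 kPa the control libraries 1, 2 and 3 had 35.2, 29.6 and 34.3 CPM, and the siNemp1 libraries 49.6, 49.3 and 70.1. Every siNemp1 library lay above every control library, and the siNemp1 library numbered 3 at 120 kPa stood highest. Of all tested genes 2.54% were higher in this way in 5 against 5 libraries.

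At 120 kPa the difference of CAV2 was 0.77 ± 0.15 without the block (95% interval 0.45 to 1.10), with an adjusted p of 0.0593 by edgeR that did not pass. In that fit 0 of the 6 tested coat genes and 0% of all genes were called. At an unadjusted p under 0.05 there were 1 and 2413, the latter of 13990 tested genes. DESeq2 called 1 coat gene and 642 genes in all (2.73% of 23537). With the block CAV2 rose by 0.76 ± 0.11 (adjusted p = 0.00766, edgeR), the sole coat gene called where 8.75% of all genes were, 6.24% higher and 2.51% lower. DESeq2 also called it (0.75 ± 0.17, adjusted p = 0.0012). Over 21 alternatives the difference ran from 0.55 to 0.88 and the adjusted p from 0.000483 to 0.397, with 8 calls. The 120 kPa libraries fitted alone, without the block, called 0 of 13362 genes, so CAV2 was not called there. The block's call was lost without the pair of libraries numbered 2 (0.75 ± 0.15, adjusted p = 0.0716, edgeR), a setting in which 2 genes were called in all. Without the pair numbered 3, which holds the highest library, it was kept (0.57 ± 0.12, adjusted p = 0.0306, edgeR), as it was without the pair numbered 1 (0.88 ± 0.11, adjusted p = 0.0034).

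At 10 kPa the difference of CAV2 was 0.34 ± 0.18 (adjusted p = 0.849, edgeR). In this fit 0 of the 6 coat genes and 0% of all genes were called. At an unadjusted p under 0.05 there were 0 and 850, the latter of 13990 tested genes. DESeq2 called 0 coat genes and 17 genes in all (0.0722% of 23537). The block called 0 coat genes there and 0.0286% of all genes. The 4 libraries at 10 kPa fitted alone had a common dispersion of 0.00423, against 0.0387 over all libraries. That fit called 17.3% of 13345 genes, 8.1% higher and 9.19% lower, with CAV2 among them (0.32 ± 0.08, adjusted p = 0.0096, edgeR), and over 18 alternatives the adjusted p ran from 0.0096 to 1. Averaged over both stiffnesses the difference was 0.55 ± 0.12, with an adjusted p of 0.0504 that did not pass (edgeR, 1.29% of genes called, 0.858% higher and 0.429% lower), of 0.00865 with the block (10.8% called) and of 0.00193 by DESeq2 (4.22% called). In the order of group means CAV2 stood at 30.8 ± 1.02 CPM in control cells at 10 kPa, 33.0 ± 3.0 in control cells at 120 kPa, 38.8 ± 0.618 in siNemp1 cells at 10 kPa and 56.3 ± 11.9 in siNemp1 cells at 120 kPa (± SD, n = 2 or 3). The control groups overlapped with each other. CAV2 was higher in each siNemp1 library at 120 kPa than in each at 10 kPa, as 18.2% of all genes were.

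The excess of CAV2 at 120 kPa over that at 10 kPa was 0.44 ± 0.23 (95% interval −0.08 to 0.95, adjusted p = 1, edgeR). With the block it was 0.42 ± 0.18, with an interval of 0.025 to 0.813 that leaves out 0 and an adjusted p that again was 1 (edgeR), so a difference between the stiffnesses did not pass. In same-numbered pairs the log2 ratio of siNemp1 to control was 0.32 and 0.35 at 10 kPa and 0.50, 0.74 and 1.03 at 120 kPa. It was above 0 in 5 of 5 pairs, as it was for 17.3% of all genes.

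**Figure D2:**
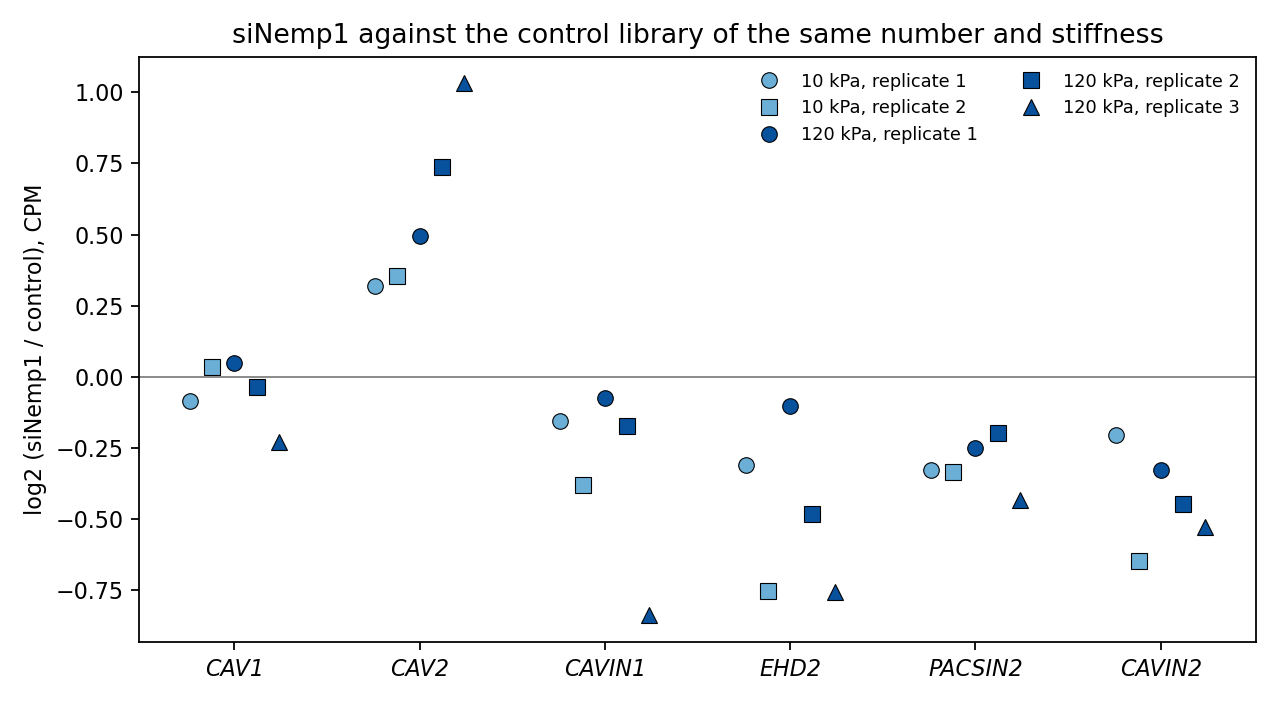
Log2 ratio of the CPM of each siNemp1 library to that of the control library with the same replicate number and stiffness, for 6 coat genes; the line at 0 marks equal levels, colour the stiffness and shape the replicate number. CAV2 lies above 0 in 5 of 5 pairs, CAV1 on both sides, and CAVIN1, EHD2, PACSIN2 and CAVIN2 below 0 in 5 of 5.

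The caveolins parted within the libraries. There were 4.03 and 3.89 CAV2 counts per 100 CAV1 counts in control and 5.33 and 4.85 in siNemp1 libraries 1 and 2 at 10 kPa. At 120 kPa there were 4.27, 4.47 and 7.0 in control and 5.81, 7.65 and 16.8 in siNemp1 libraries 1, 2 and 3. This ratio does not depend on scaling between libraries. It was higher in siNemp1 in each of the 5 same-numbered pairs, although the control library numbered 3 lay above 3 of the siNemp1 libraries, and it spanned 4.32-fold over the 10 libraries. The median GC content of annotated transcripts is 46.2% for CAV1 and 42.8% for CAV2. With the trends over length and GC taken out of each library in the blocked fit, a setting chosen after seeing the data, CAV2 differed by 0.66 ± 0.10 at 120 kPa (adjusted p = 0.00345, edgeR).

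The cavins and the accessory proteins lay on the other side of 0. CAVIN1 (ENSG00000177469, chromosome 17, 42402452 to 42423517, minus strand), which encodes the trimeric core of the outer coat, was at 176 and 173 CPM in control against 158 and 133 in siNemp1 libraries 1 and 2 at 10 kPa. At 120 kPa it was at 131, 171 and 150.0 CPM in control against 125, 151 and 83.9 in siNemp1 libraries 1, 2 and 3. Groups did not overlap at 10 kPa, as for 28.5% of all genes lower and 28.8% higher there, and overlapped at 120 kPa, where the siNemp1 library numbered 3 was lowest. The difference was −0.33 ± 0.19 at 120 kPa (adjusted p = 0.407, edgeR), −0.36 ± 0.17 with the block (0.216), −0.26 ± 0.23 at 10 kPa (0.901) and −0.30 ± 0.15 averaged over both (0.312). In the 4 libraries at 10 kPa alone it was called (−0.27 ± 0.07, adjusted p = 0.00966, edgeR), and over 18 alternatives at 10 kPa the adjusted p ran from 0.00404 to 1. The transcripts of CAVIN1 have a median GC content of 59.9%, and with length and GC trends removed in the blocked fit the difference was −0.19 ± 0.11 at 120 kPa and −0.04 ± 0.13 at 10 kPa.

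CAVIN2 (ENSG00000168497, chromosome 2, 191834302 to 191847255, minus strand), a cavin that binds phosphatidylserine and shapes caveolae in some tissues, had 46 to 93.9 estimated counts per library. Its level was 2.95 and 4.75 CPM in control against 2.56 and 3.03 in siNemp1 cells at 10 kPa, and 4.25, 3.20 and 2.86 in control and 3.39, 2.35 and 1.99 in siNemp1 cells at 120 kPa. The groups overlapped at both stiffnesses. The differences were −0.42 ± 0.28 at 120 kPa (95% interval −1.05 to 0.21) and −0.46 ± 0.35 at 10 kPa (−1.22 to 0.31). Both intervals include 0. Averaged over both stiffnesses the difference was −0.44 ± 0.22 (adjusted p = 0.313, edgeR). At 10 kPa it was −0.77 without control library 1 and −0.08 without control library 2. At 120 kPa it was −0.24 without control library 1 and −0.68 without siNemp1 library 1.

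EHD2 (ENSG00000024422, chromosome 19, 47713343 to 47743134, plus strand) encodes a dynamin-like ATPase that oligomerises at the neck and holds caveolae at the surface. At 10 kPa it was at 207 and 208 CPM in control against 167 and 123 in siNemp1 libraries 1 and 2, without overlap, as for the 28.5% of genes lower in this way. At 120 kPa it was at 134, 237 and 188 CPM in control against 125, 169.9 and 111 in siNemp1 libraries 1, 2 and 3. The control library numbered 1 lay among the siNemp1 libraries there, so the groups overlapped. The difference was −0.46 ± 0.22 at 120 kPa (adjusted p = 0.308, edgeR), −0.46 ± 0.23 with the block (0.266), −0.51 ± 0.27 at 10 kPa (0.841) and −0.49 ± 0.17 averaged over both (0.155). It had the largest average fall of the 6 genes in this fit, without passing.

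Some other fits called EHD2. DESeq2 called the average over both stiffnesses (−0.49 ± 0.17, adjusted p = 0.0452, 4.22% of genes called). So did edgeR without a filter (adjusted p = 0.00352, 2.76% called) and the blocked fit with length and GC trends removed (−0.43 ± 0.09, adjusted p = 0.00802, edgeR, 14.3% called). At 120 kPa it was called in the blocked fit of those 6 libraries alone (−0.47 ± 0.11, adjusted p = 0.0324, edgeR, 9.39% of genes called), in the blocked fit with trends removed (−0.44 ± 0.11, 0.0221, 12.7% called) and in the blocked fit without the pair numbered 1 (−0.63 ± 0.11, 0.00855). Over 21 alternatives at 120 kPa its adjusted p ran from 0.00855 to 0.687 with 3 calls, and over 16 for the average from 0.00352 to 0.467 with 3 calls. Every alternative gave a negative value. A second coat gene is thus called at 120 kPa in 3 settings, chosen after seeing the data.

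PACSIN2 (ENSG00000100266, chromosome 22, 42835412 to 43015145, minus strand) encodes an F-BAR protein, also named syndapin-2, that bends membrane at the caveolar neck. It shares 155 of its 4554 exon bases with ARFGAP3 on the same strand. At 10 kPa it was at 24.7 and 21.2 CPM in control against 19.7 and 16.8 in siNemp1 libraries 1 and 2, without overlap, again beside 28.5% of all genes. At 120 kPa it was at 18.8, 24.8 and 20.2 CPM in control against 15.8, 21.7 and 15.0 in siNemp1 libraries 1, 2 and 3, with overlap. The difference was −0.28 ± 0.18 at 120 kPa (adjusted p = 0.437, edgeR), −0.33 ± 0.21 at 10 kPa (0.873) and −0.31 ± 0.14 averaged over both (0.252). In the 4 libraries at 10 kPa alone it was called (−0.34 ± 0.12, adjusted p = 0.0437, edgeR), so that fit called 3 of the 6 coat genes where 17.3% of all genes were called. Over 18 alternatives at 10 kPa the adjusted p of PACSIN2 ran from 0.0348 to 1. A blocked fit of the same 4 libraries, chosen after seeing the data, called EHD2 as well (−0.54 ± 0.11, adjusted p = 0.0348, edgeR, 16.7% of genes called).

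CAVIN1, CAVIN2, EHD2 and PACSIN2 were each lower in siNemp1 in 5 of 5 same-numbered pairs, as 13.8% of all genes were. These 4 genes share the libraries, so their directions are not independent of each other.

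**Figure D3:**
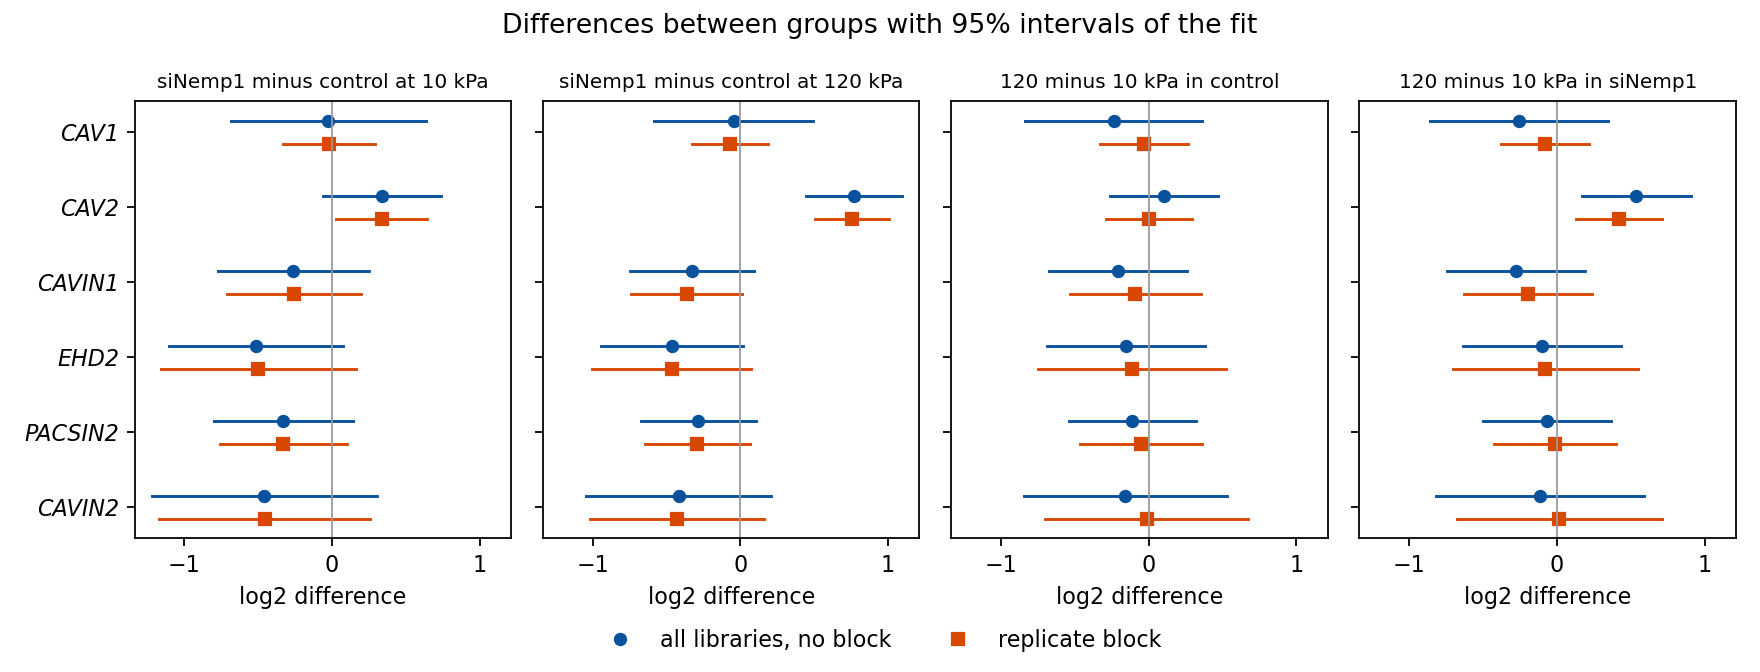
Log2 differences of 6 coat genes in 4 comparisons, with 95% intervals of the edgeR fit of all libraries without (circles) and with (squares) the replicate number as a block; the vertical line marks 0. The CAV2 intervals for siNemp1 minus control at 120 kPa lie above 0 in both fits, those of the cavins, EHD2 and PACSIN2 reach 0, and the block narrows the CAV1 intervals.

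Stiffness by itself moved no coat gene past the test. In control cells 0 of 6 coat genes were called between 120 and 10 kPa (0.0143% of all genes, edgeR). At an unadjusted p under 0.05 there were 0 coat genes and 569 of all genes, and DESeq2 called 0 and 12 (0.051%). In siNemp1 cells 0 of 6 were called too (0% of all genes, edgeR). At an unadjusted p under 0.05 there were 1 and 1655, and DESeq2 called 0 and 111 (0.472%). The differences in control cells were −0.24 ± 0.27 for CAV1, 0.10 ± 0.17 for CAV2, −0.16 ± 0.31 for CAVIN2, −0.16 ± 0.24 for EHD2 and −0.11 ± 0.19 for PACSIN2, and 0 passed with the block (0.0214% of all genes, each of them lower). CAVIN1 was lower in each control library at 120 kPa than in each at 10 kPa, as 11.9% of all genes were, with a difference of −0.21 ± 0.21 (95% interval −0.68 to 0.26). In siNemp1 cells CAV2 was higher in each library at 120 kPa than in each at 10 kPa, as 18.2% of all genes were, with a difference of 0.54 ± 0.17 (95% interval 0.17 to 0.91, adjusted p = 0.315, edgeR). The other differences in siNemp1 cells were −0.26 ± 0.27 for CAV1, −0.28 ± 0.21 for CAVIN1, −0.12 ± 0.32 for CAVIN2, −0.10 ± 0.24 for EHD2 and −0.07 ± 0.20 for PACSIN2. Averaged over both treatments, 0 of 6 coat genes were called (0% of all genes, edgeR), and DESeq2 called 0 and 491 (2.09%). In that average CAV2 was at 0.32 ± 0.12 (95% interval 0.06 to 0.58, adjusted p = 0.238, edgeR). The other tested coat genes lay below 0, from −0.25 ± 0.19 for CAV1 to −0.09 ± 0.14 for PACSIN2, with 95% intervals that include 0. No coat gene was called for a difference of the siRNA effect between stiffnesses, without or with the block (0.00715% and 0.0286% of all genes called). Without the block 235 of all genes had an unadjusted p under 0.05, and DESeq2 called 3 (0.0127%). The difference of the siRNA effect was −0.02 ± 0.39 for CAV1, −0.07 ± 0.30 for CAVIN1, 0.04 ± 0.45 for CAVIN2, 0.05 ± 0.34 for EHD2 and 0.05 ± 0.28 for PACSIN2. The 95% intervals of these 5 ran from −0.57 to 0.66 for PACSIN2, the narrowest, to −0.95 to 1.03 for CAVIN2, the widest.

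The coat genes differed in how they varied over the 10 libraries. The correlations that follow are descriptions over log2 CPM of 10 libraries, which share groups and replicate numbers. EHD2 and PACSIN2 varied most alike (Pearson r = 0.942, Spearman rho = 0.927), and the correlation of their deviations from group means was 0.89. CAVIN1 correlated with EHD2 at r = 0.869 (rho = 0.867) and with PACSIN2 at r = 0.868 (rho = 0.879). CAV2 ran against CAVIN1 (r = −0.863, rho = −0.758), and the correlation within groups was −0.894. CAVIN2 correlated most closely with CAV1 (r = 0.662, rho = 0.721, and 0.761 within groups), and less with CAVIN1 (r = 0.454, rho = 0.176), EHD2 (r = 0.271) and PACSIN2 (r = 0.214). CAV1 was little related to EHD2 (r = 0.101, rho = −0.152) or PACSIN2 (r = 0.193, rho = −0.188), and its Pearson correlation with CAVIN1 (0.508) was not seen in the ranks (rho = −0.042).

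Within libraries there were 92.8 to 139.1 EHD2 counts per 100 CAVIN1 counts, a span of 1.5-fold, and 12.3 to 17.8 PACSIN2 counts per 100 CAVIN1 counts, a span of 1.45-fold. Against CAV1 the spans were wider, with 14.6 to 30.7 CAVIN1 counts and 14.7 to 38.3 EHD2 counts per 100. The lowest of each was in the siNemp1 library numbered 1 at 120 kPa, where CAV1 was highest. At 120 kPa CAVIN1 per 100 CAV1 was 15.9, 25.8 and 30.7 in control and 14.6, 23.4 and 20.1 in siNemp1 libraries 1, 2 and 3, lowest in both libraries numbered 1 and furthest apart between control and siNemp1 in those numbered 3.

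**Figure D4:**
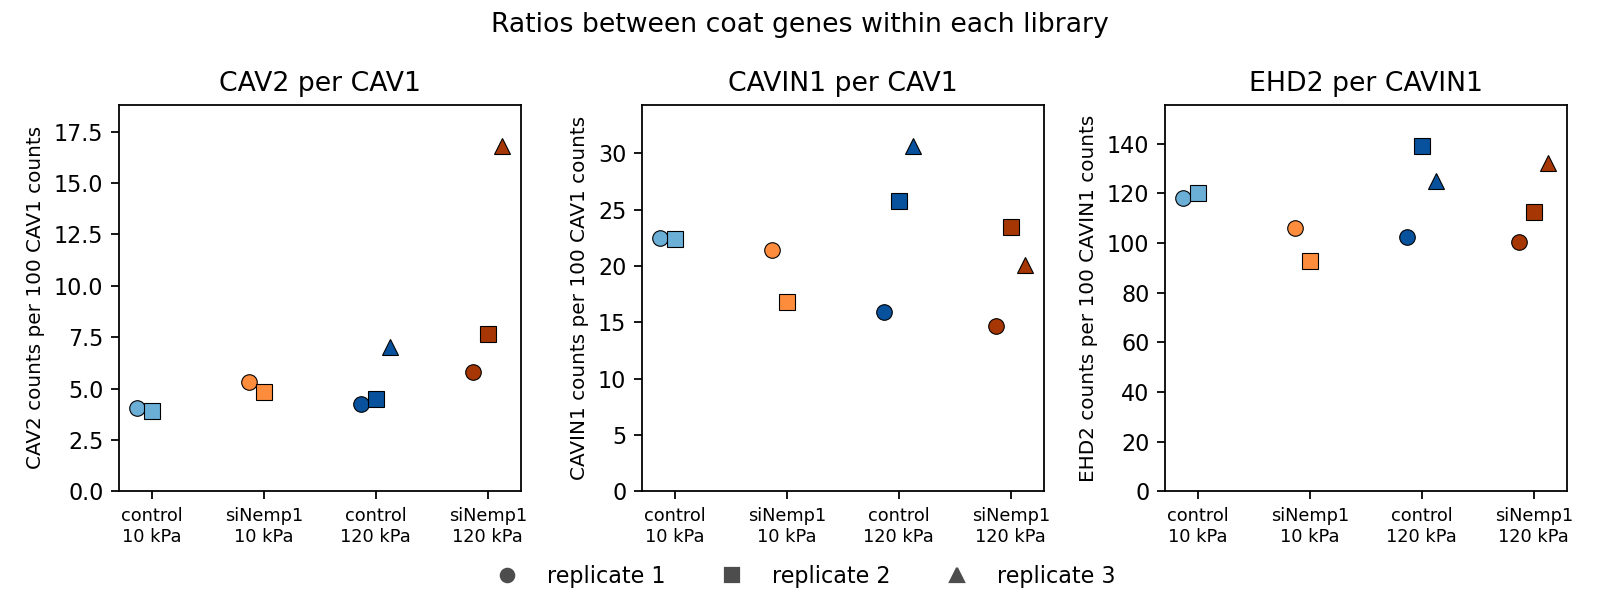
Counts of 1 coat gene per 100 counts of another in each library, for CAV2 per CAV1, CAVIN1 per CAV1 and EHD2 per CAVIN1 (vertical axes from 0, a separate scale per panel), by group and replicate number. CAV2 per CAV1 reaches 16.8 in the siNemp1 library numbered 3 at 120 kPa against 3.89 at its lowest, while EHD2 per CAVIN1 stays between 92.8 and 139.1.

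The stretches upstream of EHD2 and PACSIN2 are printed because these genes varied most alike. They come from RefSeq (GRCh38.p14) and run 5′ to 3′ on the strand of the gene. Each ends just before the first base that a GENCODE 29 exon covers or just before the RefSeq start. They are EHD2 from chr19:47713172-47713342 and PACSIN2 from chr22:43015150-43015399. Capitals mark matches to the motifs searched on both strands: the GC box GGGCGG, bound by SP factors, the TEAD core GGAATG, the sterol element TCACNCCAC and the CArG box of SRF.
EHD2: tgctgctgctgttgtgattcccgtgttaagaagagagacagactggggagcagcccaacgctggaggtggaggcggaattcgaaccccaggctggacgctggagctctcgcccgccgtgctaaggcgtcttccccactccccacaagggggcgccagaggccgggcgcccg
PACSIN2: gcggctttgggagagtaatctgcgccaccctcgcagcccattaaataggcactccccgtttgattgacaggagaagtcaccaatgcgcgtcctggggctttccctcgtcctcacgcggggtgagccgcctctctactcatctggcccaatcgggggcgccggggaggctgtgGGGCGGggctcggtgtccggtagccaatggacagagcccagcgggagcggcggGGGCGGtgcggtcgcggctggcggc

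In the 250 bases before the most upstream RefSeq start, 5 coat genes had an entry. PACSIN2 held 2 GC boxes, 78 and 25 bases before its start, and EHD2 held 1, at 57 bases, beyond the end of the stretch printed. CAV1 held 3 and CAV2 6, CAVIN2 none, and CAVIN2 alone held a TEAD core, 16 bases before its start. Over 27326 promoters the shares with a match were 42.2% for the GC box, 12% for the TEAD core, 0.867% for the sterol element and 1.15% for the CArG box, and no coat gene held either of the last. The neighbours CAV1 and CAV2 differed in base composition there, with 63.6% GC and 18 CpG for CAV1 and 83.2% GC and 35 CpG for CAV2. A match is a string of letters and no evidence of binding.

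By the rule of the 5 genes most correlated with each main coat protein, among 9318 genes averaging 5 CPM or more over the 10 libraries, CAV1 was most like the fatty acid elongase ELOVL5 (r = 0.992), the transport receptor XPO7 (0.989), ZC4H2 (0.988), the mitochondrial outer membrane channel VDAC1 (0.987) and the fatty acid receptor CD36 (0.986). CAVIN1 was most like dystroglycan, DAG1 (0.982), the collagen-binding integrin chain ITGA11 (0.977), the sialyltransferase ST8SIA5 (0.974), the kinase CDK18 (0.972) and the protocadherin PCDHGA9 (0.967). The PCDHGA9 value is uncertain because its gene shares exons with others of its cluster. No gene stood in both lists.

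Close relatives of the coat genes lay below or near them or were at most barely detected. The median over the libraries was 15.2 CPM per kilobase for EHD3, 4.76 for EHD1, 2.46 for EHD4 and 5.59 for PACSIN3, against 47.0 for EHD2 and 5.68 for PACSIN2. The muscle genes CAV3 and CAVIN4 were at most 1 and at most 17 counts in any library, and the neuronal PACSIN1 had none. Of 5 relatives tested 0 were called in any comparison by the fits of all libraries with or without the block. In the 4 libraries at 10 kPa alone, where 17.3% of genes were called, EHD4 was (−0.40 ± 0.13, adjusted p = 0.0312, edgeR). At 120 kPa the differences of siNemp1 from control were −0.32 ± 0.33 for EHD1, 0.02 ± 0.25 for EHD4 and −0.01 ± 0.36 for PACSIN3, and at 10 kPa they were −0.22 ± 0.41, −0.39 ± 0.31 and −0.40 ± 0.44.

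The wider caveolar machinery is given by lists, read in the same fits beside all genes (blocked fit, siNemp1 minus control). At 120 kPa, where 6.24% of all genes were called higher and 2.51% lower, 0 of 20 genes of scission, trafficking and the actin tether were called (median −0.07, against 0.01 over all genes), among them the fission GTPase DNM2 (−0.06 ± 0.28) and filamin A, FLNA, which links caveolin-1 to stress fibres (−0.27 ± 0.27). Of 20 receptors and enzymes described in caveolae 0 rose and 4 fell (median −0.12). These were the plasma membrane calcium pump ATP2B4 (−0.64 ± 0.11, adjusted p = 0.00986, edgeR), the insulin receptor INSR (−0.44 ± 0.10, 0.0265), the EGF receptor EGFR (−0.33 ± 0.09, 0.0379) and the adenylyl cyclase ADCY6 (−0.34 ± 0.09, 0.0449). Each was lower in all 21 alternatives at 120 kPa, of which 7 called ATP2B4, 4 INSR, 4 EGFR and 1, the block itself, ADCY6. Both flotillins, scaffolds of other membrane domains, stayed uncalled, FLOT1 at 0.28 ± 0.23 and FLOT2 at 0.00 ± 0.11. In the first fit, without the block, 0 genes of these lists were called at 120 kPa, while DESeq2 and edgeR without a filter called ATP2B4.

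Of 21 genes of the clathrin coat, the other main coat of endocytosis, 1 fell, the scaffold intersectin-1, ITSN1 (−0.68 ± 0.11, adjusted p = 0.00807, edgeR), and the heavy chain CLTC was at −0.10 ± 0.09. Averaged over both stiffnesses, ITSN1 passed also in the first fit, without the block, the sole gene of these lists to do so in that fit (−0.68 ± 0.09, adjusted p = 0.0442, edgeR). Over 16 alternatives this average ran from −0.73 to −0.65 and its adjusted p from 3.23e-07 to 0.332, with 8 calls. Its level was 42.2 ± 2.51 CPM in control and 26.5 ± 1.27 in siNemp1 cells at 10 kPa (± SD, n = 2) and 35.6 ± 3.05 against 22.1 ± 0.681 at 120 kPa (n = 3).

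Averaged over both stiffnesses in the blocked fit, where 6.58% of all genes were called higher and 4.17% lower, 3 of the 20 scission and tether genes fell: the kinase PRKCA (−0.38 ± 0.08, adjusted p = 0.0195, edgeR), the F-BAR protein FNBP1 (−0.35 ± 0.09, 0.032) and the formin DIAPH1 (−0.25 ± 0.07, 0.0463). ATP2B4, INSR, EGFR and ADCY6 fell here too, by 0.57, 0.41, 0.34 and 0.29 on the log2 scale. Of the genes of cholesterol handling reported here, the exporter ABCA1 fell (−0.36 ± 0.09) and NPC2, which hands cholesterol out of lysosomes, rose (0.33 ± 0.09, adjusted p = 0.0341, edgeR). The list medians were −0.19 for scission and tether, −0.04 for receptors, −0.11 for clathrin and −0.17 for the 12 tested genes of cholesterol handling. The median over all genes was −0.002.

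The 4 libraries at 10 kPa fitted alone, the setting that called 8.1% of all genes higher and 9.19% lower, called more genes of these lists, described here after their values were seen. Of 20 scission and tether genes 9 fell and 1, the GTPase CDC42, rose (median −0.27, against −0.015 over all genes). FLNA fell by 0.58 (adjusted p = 0.0201, edgeR) and PRKCA by 0.50. Of 20 receptors and enzymes ATP2B4 (−0.52 ± 0.06), EGFR (−0.36 ± 0.06), INSR (−0.40 ± 0.07) and ADCY6 (−0.26 ± 0.08) fell and the integrin chain ITGB1 rose (0.16 ± 0.05). Of 21 clathrin genes 4 fell, ITSN1 (−0.69 ± 0.09), its relative ITSN2 (−0.40 ± 0.11) and the adaptor chains AP2A1 (−0.43 ± 0.12) and AP2A2 (−0.32 ± 0.10). In the fits of all libraries, with or without the block, 0 genes of these 3 lists were called at 10 kPa.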

How the data were processed

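Total RNA was depleted of ribosomal RNA by RNase H and reverse transcribed from random hexamers, per the labels' protocols. The authors deposited estimated counts per gene (expected counts, not scaled between libraries), and GRCh38, Salmon 1.80 (as written), Trimmomatic 0.33, FastQC 0.11.9 and edgeR are named in the submitters' processing notes. Strandedness, the transcript annotation and the step from transcripts to genes were not given in the sources used here.

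Groups and replicate numbers came from the titles. Counts were rounded to whole numbers, filtered with filterByExpr, scaled with TMM and fitted with edgeR's robust quasi-likelihood model (edgeR 4.0.16, limma 3.58.1, R 4.3.3), with 1 mean per group over 10 libraries and 6 residual degrees of freedom. Tests were two-sided and, in the filtered edgeR fits of all libraries, adjusted over 13990 genes. Percentages for DESeq2 are of the 23537 genes with a p-value, since no low-count filter preceded it. Any genes that DESeq2's default filtering on mean count left without an adjusted p are in that total but could not be called. These percentages therefore have another base than those of edgeR. Log2 CPM for correlations used a prior count of 2. Positions and lengths came from GENCODE 29 on GRCh38.

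Across genes, the deviations from the group mean of a control and a siNemp1 library with the same number correlated at 0.426, 0.157 and 0.359 for numbers 1, 2 and 3 at 120 kPa and at 0.017 at 10 kPa. All 3 pairs at 120 kPa exceeded 0.1, so the fit with the number as a block (4 residual degrees of freedom) is given where it changes a call. The block gives each number the same shift at both stiffnesses. Whether the numbers correspond across the stiffnesses was not tested, which bears on blocked results at 10 kPa, averages and differences of effects. The pairing comes from the data and the numbers in the titles. The meaning of the numbers was not given in the sources used here. Replicate 3 exists at 120 kPa only, so blocked contrasts between stiffnesses rest mainly on numbers 1 and 2.

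The alternatives were the block, the groups compared alone, DESeq2 1.42.0, edgeR with upper-quartile scaling or with the size factors of DESeq2, no filter, and each library left out. Blocked fits of the groups compared alone, with length and GC trends removed (mgcv 1.9.3), and without each pair at 120 kPa were chosen after seeing the data. The fits were run on simulated data in which any replicate effect was the same at both stiffnesses. Replicate effects that differ between the stiffnesses were not simulated, and the outcome is not reported here. The members and gene lists were chosen with earlier results of these data known. By rule, the members (CAVIN3 by its counts of 0) were named in every comparison, of each related list up to 4 called genes per comparison by smallest p, EHD1, EHD4, PACSIN3, DNM2, FLNA, FLOT1, FLOT2 and CLTC in any case, and the 5 genes most correlated with CAV1 and with CAVIN1. Results for 1 gene of the cholesterol list and 1 of the scission and tether list are not reported here.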

Additional observations from a re-analysis of the deposited data

How the results depend on the processing

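All numbers of called genes here are at a Benjamini-Hochberg adjusted p under 0.05. The replicate block called 1224 genes for siNemp1 minus control at 120 kPa, 4 at 10 kPa and 1504 for their mean, against 0, 0 and 180 without it, and 4 for the difference of the siRNA effects (1 without it) and 2 for stiffness in siNemp1 cells (0 without it). Coat genes called with the block were 1 at 120 kPa and 1 for the mean, against 0 and 0. Without the 120 kPa pairs numbered 1, 2 and 3 the blocked fit called 1552, 2 and 755 genes at 120 kPa and 2, 0 and 1 coat genes. With length and GC trends removed it called 1771, 5 and 2007 genes for siNemp1 at 120 kPa, at 10 kPa and for the mean, with 2 coat genes at 120 kPa and 2 for the mean. For stiffness that setting called 4 genes in control, 5 in siNemp1 and 15 on average, and 4 for the difference of effects. The groups compared alone gave 2308 genes and 3 coat genes at 10 kPa (2232 and 4 with the block) and 1 gene for stiffness in siNemp1 cells. At 120 kPa they gave 0 genes without the block, and 1255 genes and 2 coat genes with it.

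DESeq2 called 642 genes at 120 kPa, 17 at 10 kPa, 993 for the mean, 12, 111 and 491 for stiffness in control, in siNemp1 and on average, and 3 for the difference of effects, with 1 coat gene at 120 kPa and 2 for the mean. Without a filter edgeR called 643, 66, 649, 159, 529, 839 and 70 genes in the same order, with 1 and 2 coat genes. For the mean of the siRNA effects, DESeq2's size factors left 0 called genes and upper-quartile scaling 71, against 180. With single libraries left out, the counts ran from 0 to 582 genes and 0 to 1 coat gene at 120 kPa (582 and 1 without control replicate 3), 0 to 2 at 10 kPa, and 0 to 666 genes and 0 to 1 coat gene for the mean. Leaving out 1 library at 120 kPa, the mean gained calls without control replicate 3, control replicate 1 or siNemp1 replicate 3 (666, 369 and 334 genes, with 1 coat gene each) and kept at most 2 called genes without any 1 of the other 7 libraries. For stiffness they ran from 0 to 3 in control, 0 to 2 in siNemp1 and 0 to 330 on average (330 without control replicate 1 at 120 kPa), and from 0 to 3 for the difference of effects.

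No called log2 difference changed its sign, and the uncalled values that did reached −0.34 (CAVIN2, difference of effects, without control replicate 2 at 10 kPa). With the block CAVIN2 was at 0.017 for stiffness in siNemp1 and 0.002 on average. With trends removed it was at 0.024 in control, 0.069 in siNemp1 and 0.047 on average. That setting gave −0.05 for CAV2 and 0.065 for CAVIN1 for stiffness in control. For the difference of effects it gave −0.021 for EHD2 and −0.007 for PACSIN2. DESeq2 gave −0.002 for CAVIN2 there, and upper-quartile scaling −0.016 for CAVIN2 and −0.004 for PACSIN2. With single libraries left out, CAV1 ran from −0.33 to 0.15 for siNemp1 at 120 kPa, −0.092 to 0.037 at 10 kPa, −0.18 to 0.067 for the mean and −0.30 to 0.17 for the difference of effects. In the difference of effects CAVIN1 ran from −0.27 to 0.10, CAVIN2 from −0.34 to 0.34, EHD2 from −0.14 to 0.27 and PACSIN2 from −0.14 to 0.17. For stiffness CAVIN2 ran from −0.46 to 0.23 in control, −0.37 to 0.02 in siNemp1 and −0.29 to 0.059 on average, EHD2 from −0.37 to 0.034 in control and −0.30 to 0.13 in siNemp1, and PACSIN2 from −0.24 to 0.012 and −0.25 to 0.044. CAV2 for siNemp1 minus control was positive in all 21 alternatives at 120 kPa and all 18 at 10 kPa. The causes of these shifts were not tested. With 2 or 3 libraries per group the number of libraries limits the precision. CAVIN2 rests on 46 to 93.9 counts per library.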
